A study of Mus musculus with 9 samples.

Results

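Polycomb repressive complex 2 (PRC2) was examined for contact with the RNAs that encode its own subunits. The 4 genes were Ezh2, Suz12, Eed and Jarid2. Their peaks were chosen by position and not by any measured value: a peak belonged to a gene when it lay on the gene's strand and its summit, the highest point of the peak, fell in a window around the gene. In the mouse build mm9 the windows were chromosome 6 at 47480000 to 47546000 on the minus strand for Ezh2, chromosome 11 at 79806000 to 79848000 on the plus strand for Suz12, chromosome 7 at 97103000 to 97130000 on the minus strand for Eed, and chromosome 13 at 44824000 to 45018000 on the plus strand for Jarid2. This gave 65 peaks out of 49266 in the series. Of these, 15 belonged to Ezh2, 16 to Suz12, 2 to Eed and 32 to Jarid2.

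PRC2 places methyl groups on histone H3 and thereby keeps developmental genes silent. EZH2 is the catalytic subunit, SUZ12 is the scaffold that holds the core together, and EED binds the methyl mark and stimulates the enzyme. JARID2 is an accessory subunit that helps to bring the complex to its target genes in embryonic stem cells. The core complex binds many RNAs in cells and in the test tube, and its RNA contacts have been studied in embryonic stem cells above all.

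The cells were EL 16.7 mouse embryonic stem cells, female and from a cross of CAST/Ei and 129/Sv/Jae, at day 7 of adherent differentiation. All clones used here stably expressed the biotin ligase BirA. The EZH2 group was 2 libraries from clones 4A and 5A with Avi-GFP-mEzh2, and the SUZ12 group was 2 libraries from clones 8E and 8H with Avi-GFP-mSuz12, so each library was 1 clone. In dCLIP, RNA was crosslinked to protein by UV light, digested, and captured with the biotinylated protein on streptavidin. The promoter of the tagged constructs, their noncoding sequence and the state of the endogenous genes are not given in the sources used here. RNA from a construct and RNA from the gene itself therefore cannot be told apart at Ezh2 in the EZH2 libraries and at Suz12 in the SUZ12 libraries. The mock dCLIP library (empty vector) and the 4 PRO-seq libraries of the series were not analysed here, so no new comparison with untagged cells was made. It is unknown whether the authors had already used the mock library as a control when they called the peaks. The lists give no expression, and the cell type was not checked against markers.

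The 4 lists held 10468 to 13951 peaks, and read depth cannot be taken from them. Every peak carries a p-value and a false discovery rate (FDR) assigned by the authors' peak caller, used here only to describe peaks within a library. No genome of build mm9 was at hand, so peaks were placed neither in exons nor in introns and no sequence is printed.

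Peaks in these windows were almost all on the strand of the gene. The 65 same-strand peaks stood against 2 peaks on the opposite strand of the same windows. One of the latter lay in the Ezh2 window in EZH2 replicate 1 and the other in the Eed window in EZH2 replicate 2, and the summit of each fell within the bounds of a same-strand peak of another library. Suz12 and Jarid2 had 0 opposite-strand peaks in every library. How often other windows with as many peaks have so few on the opposite strand was not measured. In the RefSeq table of build GRCm38.p6 a long noncoding RNA gene, F830010H11Rik, overlaps Ezh2, and its promoter is listed on the opposite strand. No other gene of that table overlaps any of the 4.

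Few peaks lay just outside the windows. Same-strand flanks of the same length held 2 peaks upstream and 2 downstream of the windows, summed over the genes and libraries. Flanks of other dense windows were not counted. Extending each window by 5 kb on both sides added 1 peak to Suz12, in EZH2 replicate 1, and 1 peak to Eed, in EZH2 replicate 2. Assigning peaks by any overlap instead of by summit gave the same 65 peaks.

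**Figure D1:**
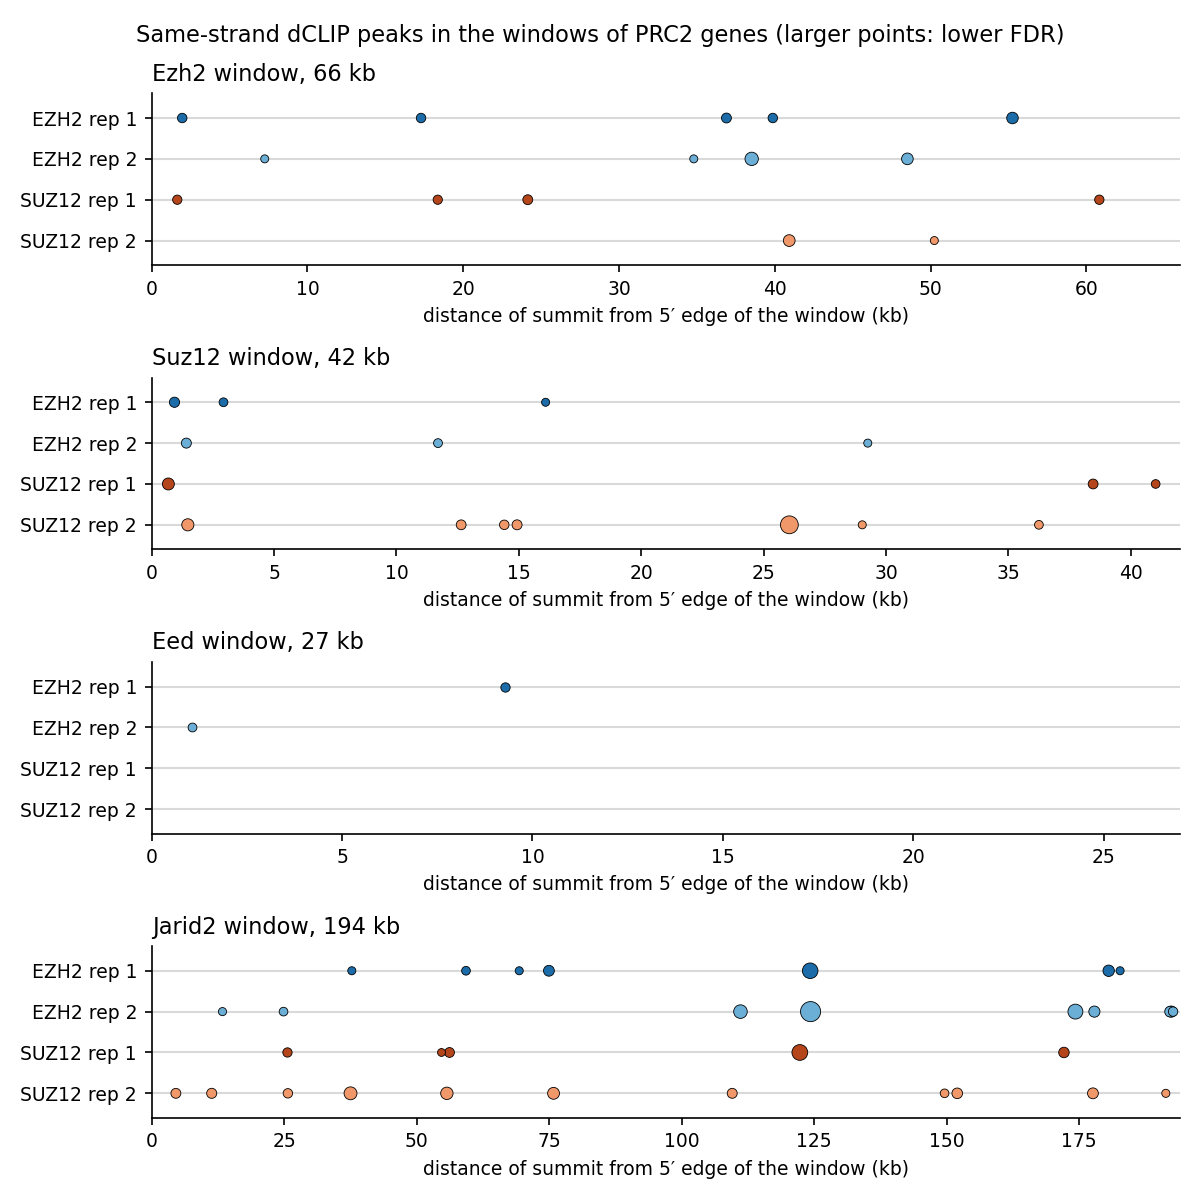
Each point is the summit of a same-strand peak, placed by its distance in kb from the 5′ edge of the gene's window, with a row for each library and a larger point for a lower FDR. All 4 libraries have a peak within 1.48 kb of the 5′ edge of Suz12, Eed has 2 peaks, both in EZH2 libraries, and the largest points of Jarid2 lie near 124 kb.

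The peaks made up a small and similar share of each library. In EZH2 replicate 1, 16 peaks of 10468 fell in the windows, 0.153% (95% Wilson interval 0.0941 to 0.248%), and in EZH2 replicate 2, 17 of 13267, 0.128% (0.0800 to 0.205%). In SUZ12 replicate 1 there were 12 of 11580, 0.104% (0.0593 to 0.181%), and in SUZ12 replicate 2, 20 of 13951, 0.143% (0.0928 to 0.221%). These intervals cover counting error only. The group means were 0.140 ± 0.0175% (SD, n = 2) for EZH2 and 0.123 ± 0.0281% (SD, n = 2) for SUZ12. Their difference, SUZ12 minus EZH2, was -0.0170 percentage points, smaller than the spread between clones. Without SUZ12 replicate 1 its sign turned, to 0.00287 percentage points.

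Per length, Suz12 carried the most peaks and Eed the fewest. The scale here is peaks per 10 kb of window per 10000 peaks of the library, which corrects for the length of the window and of the list. For Suz12, EZH2 replicates 1 and 2 gave 0.682 and 0.538, SUZ12 replicates 1 and 2 gave 0.617 and 1.19, and the mean was 0.758 ± 0.297 (SD, n = 4). SUZ12 replicate 2 stood highest and the other 3 libraries lay close together. For Ezh2 the values in the same order were 0.724, 0.457, 0.523 and 0.217, with a mean of 0.480 ± 0.209 (SD, n = 4), and here SUZ12 replicate 2 was the lowest. Jarid2, the longest window at 194 kb, had 0.345, 0.350, 0.223 and 0.406, with a mean of 0.331 ± 0.0774 (SD, n = 4). The lowest and the highest value of Jarid2 were both from SUZ12 clones. Eed had 0.354, 0.279, 0 and 0, with a mean of 0.158 ± 0.185 (SD, n = 4).

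Neighbours in this order overlapped in their ranges, Suz12 with Ezh2, Ezh2 with Jarid2 and Jarid2 with Eed. Suz12 exceeded Ezh2 in 3 of 4 libraries, Ezh2 exceeded Jarid2 in 3 of 4 and Jarid2 exceeded Eed in 3 of 4. The range of Suz12 did not overlap that of Jarid2 or Eed, and Suz12 was above each of them in 4 of 4 libraries. The windows hold introns and exons alike, and the amount of each RNA in the cells was not measured in the files used, so a density is not a rate of binding per RNA molecule.

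**Figure D2:**
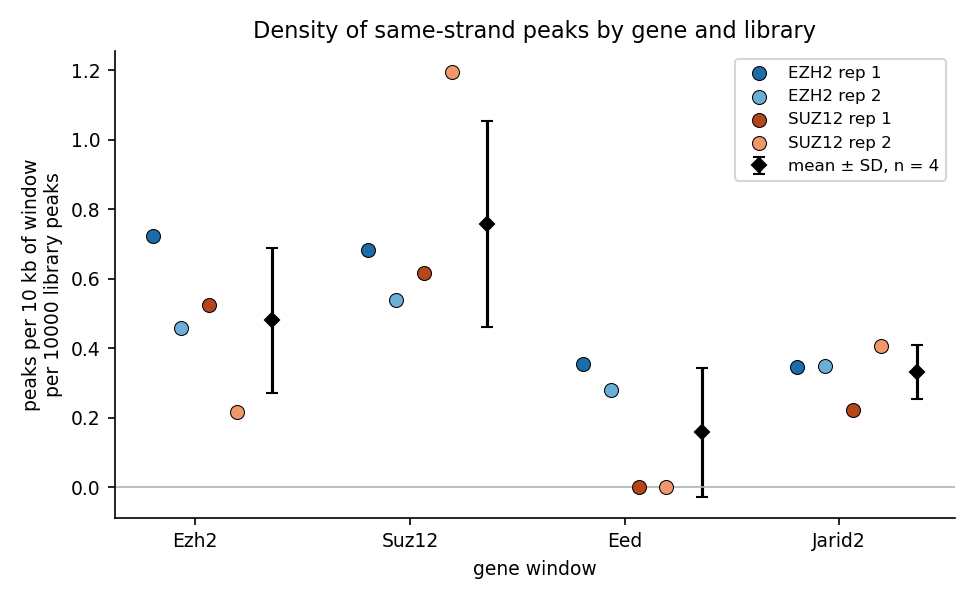
Points show peaks per 10 kb of window per 10000 library peaks for each gene and library, and diamonds show the mean with its SD over the 4 libraries. Suz12 has the highest mean, 0.758, and its range does not overlap that of Jarid2 or Eed.

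Set against the genome, 3 of the 4 windows were densely occupied. The genome was tiled on each strand with windows of the gene's own length, up to the last peak of each chromosome. Only 0.0573% of 125654 windows as long as that of Suz12 held at least its 16 peaks, or 0.399% of the windows with any peak. For Jarid2 with 32 peaks the share was 0.18% of 27218 windows, or 0.521% of those with any peak. For Ezh2 with 15 peaks it was 0.235% of 79970 windows, or 1.25% of those with any peak. Eed with 2 peaks was unremarkable by this count, since 5.62% of 195454 windows and 51.4% of those with any peak held as many. The tiles were laid without regard to genes, and which of them hold a gene or a transcript was not measured.

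Ezh2, which encodes the methyltransferase, had 5 and 4 peaks in EZH2 replicates 1 and 2 and 4 and 2 in SUZ12 replicates 1 and 2. The groups met at 4 peaks. The 15 peaks were spread along the window from 1.65 to 60.8 kb from its 5′ edge, and 6 of them lay in the first 50% of its length. None overlapped a peak of another library. The peak with the lowest FDR, 5.55e-05, was at 47507363 to 47507580 in EZH2 replicate 2 and ranked at 14.3% of its list, where a low percentage is a strong peak. In EZH2 replicate 1 the strongest peak was at 47490738 to 47490806 with an FDR of 0.000405. In SUZ12 replicate 2 it was at 47505012 to 47505110 with 0.000334, and in SUZ12 replicate 1 at 47521793 to 47521988 with 0.00195. These strongest peaks lay at different places in each library. The closest approach between libraries was near the 5′ edge, where summits of EZH2 replicate 1 and SUZ12 replicate 1 were 318 bp apart, at 1.96 and 1.65 kb.

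Suz12, which encodes the scaffold subunit, had 3 peaks in every library except SUZ12 replicate 2, which had 7. The groups met at 3 peaks, and the excess of the SUZ12 libraries came from replicate 2. The 5′ end of the window was the one place where every library had a peak. SUZ12 replicate 1 had a peak at 79806634 to 79806765 (FDR 0.000260), EZH2 replicate 1 at 79806919 to 79807103 (0.00146), EZH2 replicate 2 at 79807096 to 79807509 (0.00175) and SUZ12 replicate 2 at 79807398 to 79807594 (0.000218). Their summits lay within 795 bp, from 0.683 to 1.48 kb from the edge. The last 3 of these peaks overlapped in a chain of 676 bp with no base common to all of them, and the peak of SUZ12 replicate 1 stood apart from the chain. Of the 48 chains of summits spaced by at most 1 kb in the 4 genes, 1 held all 4 libraries, which is 2.08%. Across the series 1.46% of 39361 such chains did, so the share in these genes was close to that in general.

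The strongest peak of Suz12 was elsewhere and in 1 library. It lay at 79831961 to 79832144 in SUZ12 replicate 2, 26.1 kb from the 5′ edge, with an FDR of 1.15e-07 and a rank of 2.76% in its list. The nearest summit of another library was 3203 bp away. The remaining peaks of SUZ12 replicate 2 included a group of 3 between 12.6 and 14.9 kb, where EZH2 replicate 2 had a summit at 11.7 kb and EZH2 replicate 1 at 16.1 kb. SUZ12 replicate 1 had its other 2 peaks near the 3′ edge, at 38.5 and 41.0 kb.

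Eed, which encodes the subunit that reads the methyl mark, had 1 peak in each EZH2 library and 0 in each SUZ12 library. The peak of EZH2 replicate 1 was at 97120621 to 97120806, with an FDR of 0.00310. That of EZH2 replicate 2 was at 97128880 to 97129026, with 0.00470. Their summits were 8218 bp apart, so the 2 peaks did not mark the same site, and both ranked in the weaker part of their lists, at 59.7 and 73.3%. Of the 4 genes, only Eed had groups that did not overlap, as was so in 29.4% of the 4609 windows compared across the genome. Those windows had a mean of at least 1 peak per library, and Eed, with 0.5, was not among them. With 2 peaks the pattern is common: 12.3% of 4594 windows of this length with exactly 2 peaks had 1 in each EZH2 library, and 13.8% had 1 in each SUZ12 library. A gene without a peak may still have bound RNA below the caller's threshold.

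Jarid2, which encodes the accessory subunit, had 7 and 9 peaks in EZH2 replicates 1 and 2 and 5 and 11 in SUZ12 replicates 1 and 2. The SUZ12 clones enclosed the EZH2 clones. The gene held the shared site with the most bases in common, at 44948193 to 44948416 in EZH2 replicate 1 (FDR 3.26e-06) and 44948199 to 44948429 in EZH2 replicate 2 (2.69e-09). The 2 peaks shared 218 bp and their summits were 74 bp apart. They ranked at 5.09 and 1.30% of their lists and were the strongest Jarid2 peaks of those libraries. Neither SUZ12 library had a peak there. SUZ12 replicate 1 had its strongest Jarid2 peak 1952 bp upstream by summit, at 44946261 to 44946397, with an FDR of 2.49e-06 and a rank of 4.81%. SUZ12 replicate 2 had no summit between 109.6 and 149.6 kb from the 5′ edge, the stretch that holds these peaks.

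The second shared site of Jarid2 was between the SUZ12 clones. SUZ12 replicate 1 had a peak at 44849594 to 44849719 (FDR 0.00320) and SUZ12 replicate 2 at 44849649 to 44849753 (0.00289), with 71 bp in common. Here EZH2 replicate 2 had a peak 742 bp away by summit, at 44848887 to 44849026, with 0.00524. The 3′ end of the window held a dense group, with 3 summits of EZH2 replicate 2 between 192.2 and 192.7 kb and 1 of SUZ12 replicate 2 at 191.4 kb. In all, 8 of the 32 Jarid2 peaks lay in the last 10% of the window and 3 in the first 10%. For Suz12 the first 10% held 5 of 16 peaks and the last 10% held 2.

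Whether the tagged subunit changed the number of peaks on these RNAs was tested by comparing the SUZ12 with the EZH2 libraries. Peaks per window were compared as log2((peaks + 0.5) / (library peaks + 1) x 10000) with limma across the gene windows and 50-kb stranded windows of the rest of the genome. Ezh2 had the lower mean in the SUZ12 libraries, 1.40 against 2.08 on this scale, a difference of -0.68 ± 0.59 (SE), with a 95% interval of -1.83 to 0.47 (limma, adjusted p = 0.857). Suz12 had the higher mean there, 2.01 against 1.57, a difference of 0.44 ± 0.58 (SE), interval -0.70 to 1.58 (limma, adjusted p = 0.951). Each of these RNAs thus had the higher mean in the libraries of its own tagged protein, but neither difference passed the test. Without SUZ12 replicate 2 the differences were -0.12 for Ezh2 and 0.025 for Suz12, so both rested largely on that library. Limited to the strongest 50% of each list by FDR, Suz12 differed by 1.42 (limma, adjusted p = 0.815). Only 5 Suz12 peaks remained there, and EZH2 replicate 2 kept no Suz12 peak. In addition, 2 Suz12 peaks shared their p-value with peaks on both sides of that limit. Scaled to the bases covered, Suz12 differed by 0.71 (limma, adjusted p = 0.801). Scaled in that way Ezh2 differed by -0.41 (limma, adjusted p = 0.926).

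Jarid2 had means of 2.65 in SUZ12 and 2.84 in EZH2 libraries, a difference of -0.19 ± 0.50 (SE), interval -1.17 to 0.78 (limma, adjusted p = 0.951). Its sign turned when libraries were scaled to the bases their peaks cover, at 0.072, and without SUZ12 replicate 1, at 0.20. Eed had a mean of 0.5 peaks per library, under the minimum of 1 for the fit, so it has no value from this test. By exact permutation tests of the peaks per 10000 library peaks, two-sided, p was 0.667 for Ezh2, 0.667 for Suz12, 0.333 for Eed and 1 for Jarid2. With 2 clones per protein these tests allow no p below 0.333.

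In limma 0 of 4609 windows (0%) reached the adjusted threshold of 0.05, while the unadjusted p of 196 was below 0.05. The median window differed by -0.11, against 0.00 without scaling and 0.16 when scaled to bases covered. Without scaling, Ezh2 differed by -0.57, Suz12 by 0.55 and Jarid2 by -0.086. The 95% interval of a median window reached 1.72 to either side on the log2 scale, or 3.28-fold. As a fold of SUZ12 over EZH2, the interval was 0.281 to 1.39 for Ezh2, 0.616 to 2.99 for Suz12 and 0.445 to 1.72 for Jarid2. Each interval includes 1. Nothing in the labels says whether the clones were grown separately. The standard errors, intervals and p-values of this fit rest on a spread between clones smoothed over all windows by their mean peak number. The spread between the clones at each gene by itself had almost no weight in them.

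**Figure D3:**
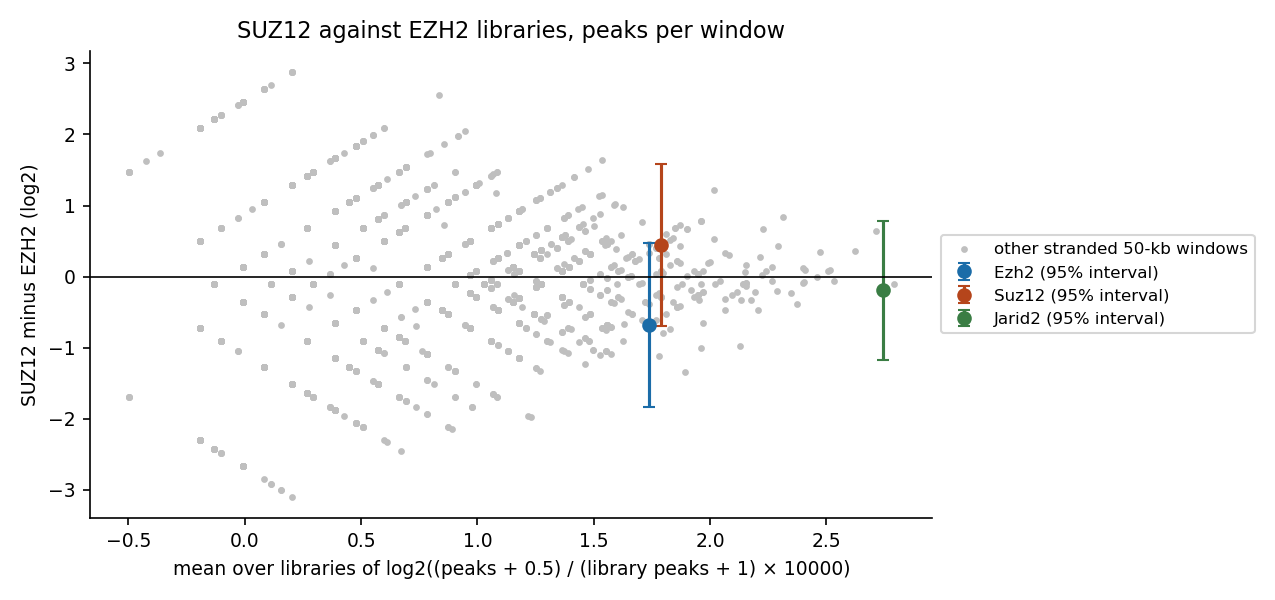
The vertical axis is the difference SUZ12 minus EZH2 on the log2 scale and the horizontal axis is the mean scaled number of peaks on the log2 scale, with grey points for the other windows and coloured points with 95% intervals for 3 genes. The intervals of Ezh2, Suz12 and Jarid2 all include 0.

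Few peaks of these genes recurred at the same bases. Merging peaks that overlapped by at least 1 bp gave 61 sites in the 4 windows, of which 3 had a peak in more than 1 library, 4.92%. In the series 8.08% of 44277 sites did, so the share in these genes was no higher than in general. The 3 sites were the Suz12 chain in 3 libraries, the EZH2 site of Jarid2 and the SUZ12 site of Jarid2. The count fell to 1, the Jarid2 site of the SUZ12 clones, without EZH2 replicate 2, and to 1, the Jarid2 site of the EZH2 clones, when each list was limited to its strongest 50% by FDR.

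Within 1 kb, the neighbours were mostly in Suz12 and Jarid2. A summit of another library lay within 1 kb on the same strand for 8 of 16 Suz12 peaks, 15 of 32 Jarid2 peaks, 2 of 15 Ezh2 peaks and 0 of 2 Eed peaks, together 25 of 65, 38.5%. Among all peaks of the series the share was 31.1%. A summit of the other clone of the same protein lay that near for 10 of the 65 peaks, 4 in Suz12 and 6 in Jarid2, where 15.4% of all peaks had one. A summit of the other protein did for 21 of the 65, where 24.9% of all peaks had one. All 8 of these Suz12 peaks had a neighbour from the other protein. The median distance to the nearest summit of another library was 1311.5 bp against 2860.5 for the remaining peaks in EZH2 replicate 1, 1356 against 3828.5 in EZH2 replicate 2, 1512 against 2868.5 in SUZ12 replicate 1 and 1110 against 3886 in SUZ12 replicate 2. It was shorter in 4 of 4 libraries (exact sign-flip permutation test, two-sided, p = 0.125, the smallest that 4 libraries allow). A close pair of summits shortens the distance in both of its libraries, so the libraries are not independent here, as the test assumes. Dense windows bring summits close together whether or not they mark the same site, and this was not separated here.

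The peaks had higher median FDRs and smaller median widths than the rest of their libraries, neither past the test. By FDR, 26 of the 65 ranked in the strongest 50% of their list, which is 40%, and 5 in the strongest 10%. Many peaks share a p-value, since 97.7% of all p-values in the lists were powers of 0.5 (tolerance 1e-04 on the log2 scale), and ranks among such ties follow the order of the list. Counting a peak only where its whole tie was inside, 23 of the 65 were in the strongest 50% and 4 in the strongest 10%, and the ties of 6 and 1 peaks spanned these limits. Jarid2 held 4 of the 5 peaks ranked in the strongest 10% and Suz12 the other, and 16 of the 32 Jarid2 peaks were in the strongest 50%. For Ezh2 and Suz12 this was 5 of 15 and 5 of 16, and for Eed 0 of 2. The median FDR of the peaks in the windows was above that of the remaining peaks in 4 of 4 libraries, 0.00280 against 0.00195, 0.00175 against 0.00160, 0.00254 against 0.00203 and 0.00183 against 0.00112 in the order EZH2 replicates 1 and 2 and SUZ12 replicates 1 and 2.

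Median widths in the same order were 152 bp against 177, 150 against 188, 130.5 against 151 and 122.5 against 138. The peaks in the windows were thus narrower in 4 of 4 libraries. Both comparisons gave p = 0.125 in an exact sign-flip permutation test over the 4 libraries, two-sided, the smallest p that 4 libraries allow. Widths ranged from 52 bp at the 3′ end of Jarid2 in EZH2 replicate 2 to 414 bp at the 5′ end of Suz12 in the same library. Between the proteins, the median width in the windows was 151 ± 1.41 bp (SD, n = 2) for EZH2 and 126.5 ± 5.66 bp (SD, n = 2) for SUZ12, a gap in the same direction as in the full lists, where the medians averaged 182.5 and 144.5 bp.

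**Figure D4:**
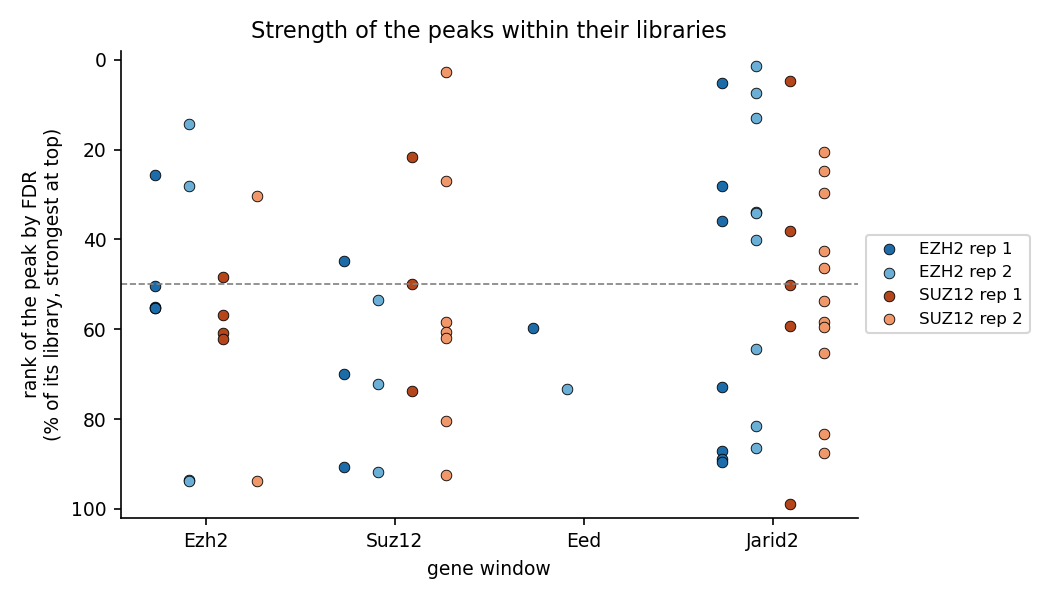
Each point is a peak, placed by its rank by FDR in percent of its library, with the strongest at the top and the dashed line at 50%. The 26 peaks above the line include 16 of Jarid2, and both Eed peaks lie below it.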

How the data were processed

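Per the submitters' processing notes, the authors used build mm9 with bedtools 2.17.0, TopHat2 2.0.8, Trim Galore 0.3.3 and SAMtools 0.1.18. The peak names carry the prefix of PeakRanger. Its version, settings and use of the mock library are not given in the sources used here. Peaks had been called for each library and strand alone. The deposited values are positions and, for each peak, a p-value and an FDR. Starts, counted from 0 in the lists, are printed counted from 1.

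Peaks were assigned to genes by strand and summit. Windows with a mean of at least 1 peak per library were tested with limma 3.58.1 in R 4.3.3 (trend, two-sided, Benjamini-Hochberg adjustment over all windows). The step was also run on simulated counts that held no spread between clones beyond counting error. That run therefore does not show how the step performs on these clones. Peaks per window are not read counts, and no count model was fitted to them. Other steps ran in Python 3.11.15 with pandas 2.3.3 and SciPy 1.17.1. Precision is limited by 2 clones per protein and by 0 to 11 peaks per gene window in a library, out of 10468 to 13951 peaks per library.

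All 4 genes are named, with every site shared by libraries and the strongest peak of each gene. Peaks within 1 kb, the tiling, ranks and widths were chosen after values were seen, and the genes and tests with earlier results of these data known. Alternatives covered overlap, FDR, list length, offset, scaling, filter, window size, strand, replicate block and each library left out. Other PRC2 genes, exons and sequences were not analysed here, as no annotation or genome of mm9 was at hand.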

Additional observations from a re-analysis of the deposited data

How the results depend on the processing

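No window passed the adjusted threshold in limma under any of 17 alternatives, where the count stayed 0 and the smallest adjusted p ranged from 0.0916 to 0.984. With 1 library left out, the lone clone of a protein is assumed to vary as the other pair did over all windows, not at the gene alone. The difference SUZ12 minus EZH2 (log2) then ranged from -1.24 to -0.12 for Ezh2, 0.025 to 0.86 for Suz12, -1.86 to -1.52 for Eed and -0.59 to 0.20 for Jarid2, the last reversing without SUZ12 replicate 1. Jarid2 also reversed with scaling to bases covered, at 0.072. Beside the libraries left out, Ezh2 ranged from -0.68 to -0.41 on its own strand. The opposite strand of its window, with 1 peak in EZH2 replicate 1, gave -0.90 with no test. On its own strand Suz12 ranged from 0.26, with windows extended by 5 kb, to 1.42, in the strongest 50% by FDR, where 5 of its peaks remained. Both genes kept their sign in every setting on their own strand. Eed, a difference of -1.69 with no test, was -0.11 in the strongest 50% of peaks by FDR, where none of its peaks remained, -1.11 with an offset of 1 peak, -1.43 scaled to bases covered, -2.06 with windows extended by 5 kb and -0.90 on the opposite strand. With lower filters Eed entered the fit, with adjusted p = 0.840 and 0.706 in limma. On the opposite strand Suz12 and Jarid2 had 0 peaks, and the offset and library sizes alone gave -0.11 for each, which for Suz12 is of the other sign. The number of shared sites was 3, and 2 with 50% reciprocal overlap, 1 in the strongest 50% by FDR, 0 on the opposite strand and 1 to 2 with a library left out. The difference in the share of library peaks was -0.0369 to 0.00287 percentage points with a library left out. With the replicate block the differences were again -0.68 for Ezh2, 0.44 for Suz12, -1.69 for Eed and -0.19 for Jarid2. In this balanced design a block cannot change them, nor can the filter or the size of the other windows. The adjusted p in limma with the block stayed above the threshold, at 0.803, 0.840 and 0.930 for the 3 genes fitted. Same-numbered libraries share only a number in the labels, and their deviations correlated at 0.0522 across 4609 windows.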
